A study of Mus musculus with 36 samples.

Results

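A set of 41 genes that take fatty acids into heart muscle, prepare them for the mitochondrion and oxidise them was followed in both chambers sampled, left ventricle and atria, from CUG960 mice, a heart model of myotonic dystrophy type 1. The genes were chosen by their known function, with earlier results of these data known. They were looked up by symbol among 55291 gene symbols, and all 41 were found. All 41 also had enough reads to be among the 19231 genes tested.

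The adult heart draws most of its energy from long-chain fatty acids. These are freed from circulating lipoproteins, carried across the cell membrane, activated to acyl-CoA, passed into the mitochondrion by the carnitine shuttle and shortened by repeated cycles of beta oxidation, whose electrons reach the respiratory chain through the electron transfer flavoprotein. Many of the genes are targets of the nuclear receptor PPARα and its coactivator PGC-1α, and several respond quickly to the supply of fatty acids, for example in fasting.

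CUG960 mice were homozygous for TREDT960I, a transgene in which a tetracycline-responsive promoter drives 960 interrupted CTG repeats in the human DMPK context, and hemizygous for MHCrtTA, which supplies the transactivator from the cardiomyocyte-specific α-MHC promoter. All animals were 21 weeks old. The +dox mice ate doxycycline chow from postnatal day 1 and made the repeat RNA throughout, the –dox mice never ate it, and the +/–dox mice were taken off it at 9 weeks, 12 weeks before collection. The MBNL1, MBNL2 and MBNL1+MBNL2 mice stayed on doxycycline and received AAV9 vectors for tagged human MBNL1, MBNL2 or both into the tail vein at 9 weeks, under the heart-specific human TNNT2 promoter. Each of the 6 cohorts gave 3 libraries per chamber, 36 in all. Both chambers came from the same mice. The labels do not tie their replicate numbers to mice, so the tests treated all libraries as independent unless stated otherwise. All cohorts carried both transgenes, so repeat RNA and doxycycline chow changed together in –dox and +/–dox mice and cannot be told apart, and no library of mice given a control vector was analysed here.

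Total expected counts per library ran from 55031987 to 97091184, and the member with the fewest reads, Angptl4, still had 34 to 1097 of them per library. One library, ventricle MBNL1 replicate 1, stood apart with 16885 genes above 0 against 20578 in the next lowest. The chamber labels held: the 4 ventricle markers together summed to 19779 to 27745 TPM in the ventricle and 40.0 to 806 TPM in the atria, and the 6 atrial markers to 31355 to 51388 TPM in the atria and 96.0 to 821 TPM in the ventricle. The 7 cardiomyocyte markers summed to 20443 to 29121 TPM in the ventricle and 32061 to 42009 TPM in the atria. Mouse Mbnl1, Mbnl2, Mbnl3 and Dmpk were called against +dox in 0 of the MBNL cohorts, which says nothing of the human vector and transgene sequences. In bulk tissue, fewer cells of a type and less RNA per cell cannot be told apart.

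The study's supplement lists male and female sequenced mice in every cohort but MBNL1+MBNL2, whose mice were all male. Comparisons of that cohort thus set male mice against cohorts of both sexes. The labels do not tie sex to libraries. Xist, the RNA that silences an X chromosome in females, stood at 13.6 to 41.2 TPM in 10 libraries, replicate 3 of both chambers in every cohort but MBNL1+MBNL2, and at 0.010 to 0.15 TPM in the other 26. Ddx3y of the Y chromosome was at 0.080 to 0.21 TPM in those 10 libraries and at 24.5 to 34.8 TPM in the 26. In the cohorts other than MBNL1+MBNL2 the 10 libraries with Xist are also the ones that the library names put in a second set, so sex and library set cannot be told apart there.

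The stretches of DNA below are shown because they belong to genes that carried the largest differences or that sit next to each other in the genome. They come from RefSeq (GRCm38.p6), which gave a promoter for 36 of the 41 members. Each is printed 5′ to 3′ in lower case with the 6-letter hexamer bound by nuclear receptors such as PPARα (AGGTCA, or TGACCT on the other strand) in capitals. The first pair are the 250 bases before the starts of the neighbours Acot2 (chr12:83987611-83987860, plus strand) and Acot1 (chr12:84009252-84009501, plus strand), and neither holds the hexamer.
Acot2: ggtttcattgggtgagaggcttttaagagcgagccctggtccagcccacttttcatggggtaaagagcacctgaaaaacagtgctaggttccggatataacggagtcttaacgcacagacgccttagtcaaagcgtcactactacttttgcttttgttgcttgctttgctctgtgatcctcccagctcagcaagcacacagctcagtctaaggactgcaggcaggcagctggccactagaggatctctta
Acot1: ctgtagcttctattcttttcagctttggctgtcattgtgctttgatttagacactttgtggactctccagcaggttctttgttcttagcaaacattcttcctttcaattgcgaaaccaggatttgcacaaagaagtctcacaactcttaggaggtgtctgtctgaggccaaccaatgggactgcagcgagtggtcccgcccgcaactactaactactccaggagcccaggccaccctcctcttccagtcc
The second pair are the 250 bases before the starts of Ucp3 (chr7:100472741-100472990, plus strand), with hexamers that begin 149 and 44 bases before the start, and Plin5 (chr17:56117549-56117798, minus strand), with 1 hexamer that begins 170 bases before it.
Ucp3: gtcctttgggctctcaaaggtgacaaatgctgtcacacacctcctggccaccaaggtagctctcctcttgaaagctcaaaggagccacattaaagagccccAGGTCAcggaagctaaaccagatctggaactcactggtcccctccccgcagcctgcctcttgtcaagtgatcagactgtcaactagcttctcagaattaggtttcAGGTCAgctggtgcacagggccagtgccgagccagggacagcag
Plin5: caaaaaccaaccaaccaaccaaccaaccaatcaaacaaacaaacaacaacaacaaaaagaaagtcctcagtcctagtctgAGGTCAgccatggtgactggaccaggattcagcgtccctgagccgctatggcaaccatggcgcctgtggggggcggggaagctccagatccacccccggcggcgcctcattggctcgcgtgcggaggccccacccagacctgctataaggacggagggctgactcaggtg
The last is the stretch of 85 bases, 69.4% G or C, that separates the GENCODE starts of Hadha and Hadhb (chr5:30155163-30155247), which are transcribed away from each other and encode both subunits of the mitochondrial trifunctional protein.
Hadha to Hadhb: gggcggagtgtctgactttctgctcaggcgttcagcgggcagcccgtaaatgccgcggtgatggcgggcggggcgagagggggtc

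The hexamer occurred in 20% of 40 member promoters (Acadm, Acadvl, Cd36, Cpt1a, Echs1, Plin2, Plin5 and Ucp3) and in 14% of all 32851 mouse promoters of the same length. A direct repeat of it with 1 base between (AGGTCANAGGTCA), the classical PPAR element, was in 0 member promoters and in 0.0335% of all. The extended hexamer TCAAGGTCA was in 0 member promoters and 0.387% of all, and the E-box CACGTG was in 1 member promoter, one of Slc27a1, and 6.02% of all. These are matches of letters on either strand and not binding sites, and a missing match says only that the letters are not in this window.

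The members together took up a large share of the transcriptome. They made up 1.75% ± 0.0763 (SD, n = 3) of all TPM in the –dox ventricle and 1.08% ± 0.0405 in the –dox atria. Fabp3, the fatty acid carrier of the heart cell cytosol, led both chambers with 6380, 6512 and 5583 TPM in the –dox ventricle and 2922, 2723 and 2776 TPM in the –dox atria, and was the 23rd and 33rd gene overall. Part of its reads may be divided with Fabp3-ps1, which holds 21.7% of its 100-base words. The other leaders of the –dox ventricle were Hadhb, Lpl, the lipase that frees fatty acids from lipoproteins, Cd36, the fatty acid receptor of the cell surface, and Acadl, the long-chain acyl-CoA dehydrogenase. Their mean levels were 1206 TPM ± 30.1 (SD) for Hadhb, 1146 TPM ± 74.7 for Lpl, 845 TPM ± 58.9 for Cd36 and 825 TPM ± 13.5 for Acadl. At the other end stood Acsl3 and Acsl4, minor acyl-CoA synthetases, at 2.74 TPM ± 0.492 and 4.11 TPM ± 0.239, and Angptl4 at 4.22 TPM ± 1.89. Fabp3 stood above the next member by more than its spread, while Lpl overlapped Hadhb, Cd36 overlapped Acadl, and Angptl4 overlapped Acsl4.

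The first comparison asked how the members differed between ventricles that never made the repeat RNA (–dox) and those that made it throughout (+dox). A gene was called at an adjusted p below 0.05 (edgeR's quasi-likelihood test, Benjamini-Hochberg over all 19231 genes) if it also differed 1.5-fold or more. In the –dox ventricle 9 of the 41 members were called and all 9 were higher than in +dox, against 3.47% of all genes tested. They were the thioesterases Acot1 and Acot2, the lipase inhibitor Angptl4, Ucp3, the lipid droplet genes Plin5 and Pnpla2, the transporter Slc27a1, the malonyl-CoA decarboxylase Mlycd and Hadhb. By adjusted p alone 22 members were higher, against 9.64% of all genes, and 1, Acsl4, was lower. Of the 41 members 39 had a positive log2 fold change, with a median of 0.37 against 0.0087 over all genes tested. The members' share of all TPM was 1.41% to 1.53% in the +dox ventricle and 1.69% to 1.84% in the –dox ventricle, with no overlap.

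**Figure D1:**
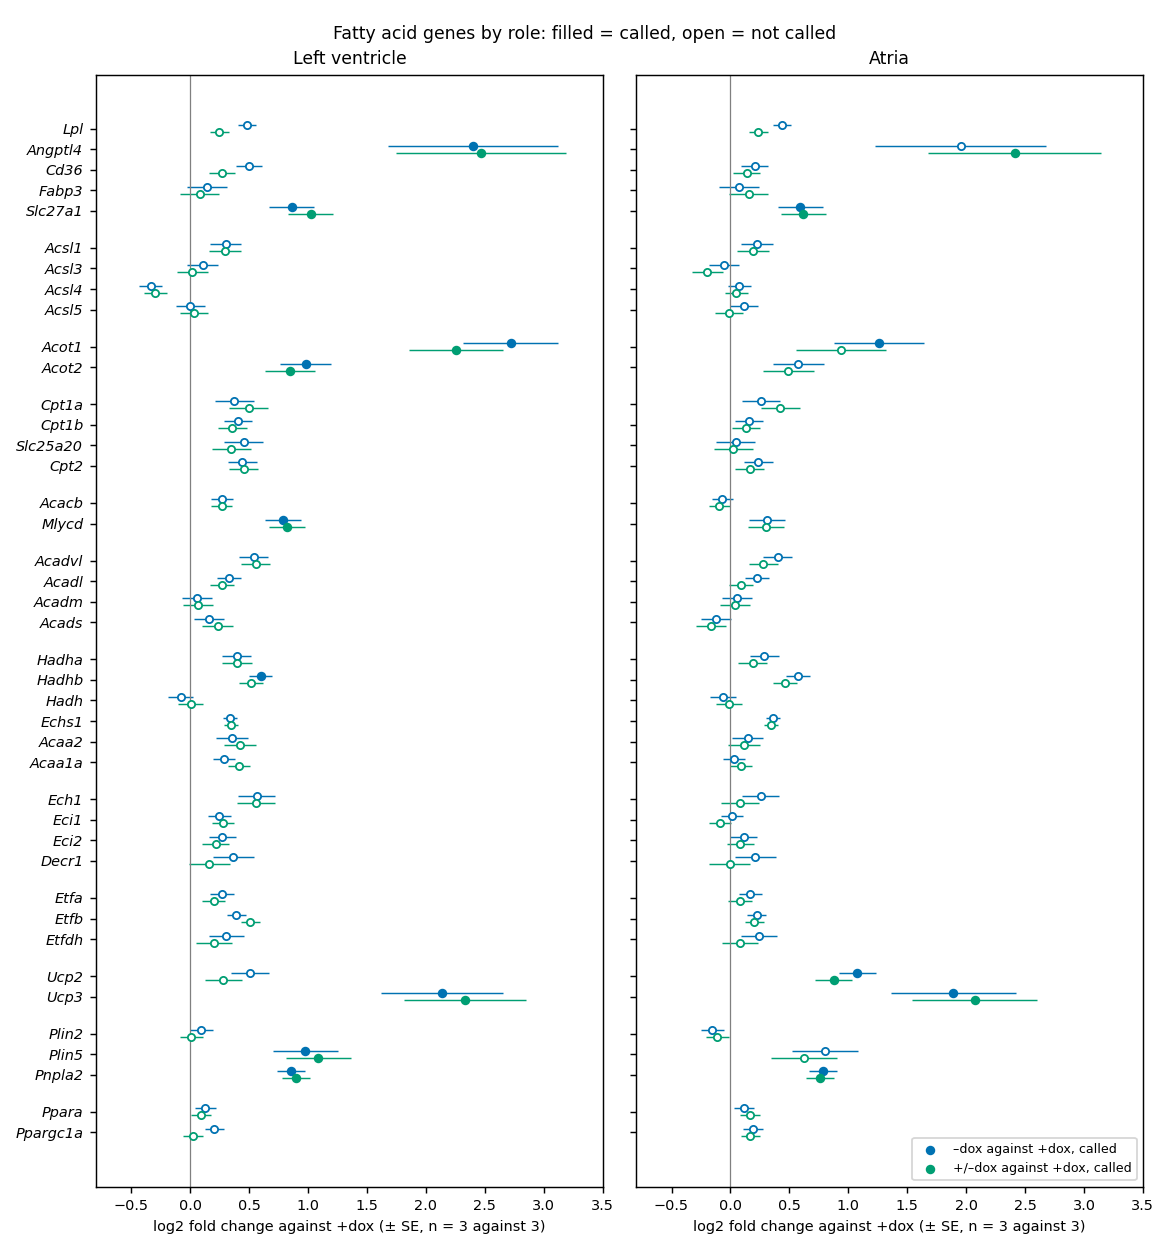
Log2 fold change (± SE, 3 libraries against 3) of each of the 41 members in –dox (blue) and +/–dox (green) against +dox, in the left ventricle (left) and the atria (right), grouped by role. Filled points were called. Angptl4, Acot1 and Ucp3 lie farthest to the right in the ventricle, while most genes of the beta oxidation cycle lie between 0.2 and 0.6.

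Acot1, a cytosolic thioesterase that splits acyl-CoA back into free fatty acid and is a classical PPARα target, had the largest log2 fold change of the members in –dox. It stood at 0.956, 1.97 and 1.90 CPM (read counts scaled to a common library size, TMM-normalized) in the +dox ventricle, at 11.5, 8.31 and 11.9 CPM in –dox and at 9.20, 8.45 and 5.32 CPM in +/–dox. Every –dox and +/–dox library was above every +dox library. The log2 fold change was 2.72 ± 0.40 (SE, adjusted p = 1.86e-05) in –dox, a 6.59-fold difference, and 2.25 ± 0.40 (adjusted p = 1.93e-04) in +/–dox. Acot2, the mitochondrial thioesterase encoded next to it, stood at 27.1, 33.3 and 25.8 CPM in +dox, 59.8, 47.2 and 62.8 CPM in –dox and 63.8, 52.6 and 38.8 CPM in +/–dox, again with no overlap. Its log2 fold change was 0.98 ± 0.21 (adjusted p = 0.00164) in –dox and 0.85 ± 0.21 (adjusted p = 0.00523) in +/–dox. Both genes kept their calls in each of 15 alternatives. The Acot genes are close copies: 12.4% of the 100-base words in Acot1 transcripts and 17.1% of those in Acot2 transcripts also occur in another gene, so part of their reads was divided between them by the counting software.

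Ucp3, the muscle uncoupling protein of the inner mitochondrial membrane, stood at 7.24, 14.0 and 7.38 CPM in the +dox ventricle and at 69.8, 34.1 and 22.2 CPM in –dox. In +/–dox it read 55.9, 71.2 and 17.4 CPM. All 6 of these –dox and +/–dox libraries were above all +dox libraries, although they differed several-fold among themselves. The log2 fold change was 2.14 ± 0.52 (adjusted p = 0.00414) in –dox and 2.33 ± 0.52 (adjusted p = 0.00210) in +/–dox, and it passed neither time when only the 6 libraries of the comparison were fitted (adjusted p = 0.0776 and 0.0693). Its neighbour Ucp2, the more widely expressed uncoupling protein, was called in neither the –dox nor the +/–dox ventricle, although all –dox libraries were above +dox. It read 52.1, 45.2 and 45.6 CPM in +dox, 63.6, 65.4 and 74.3 CPM in –dox and 64.4, 59.4 and 50.0 CPM in +/–dox, with log2 fold changes of 0.51 ± 0.16 (adjusted p = 0.0230) and 0.28 ± 0.16 (adjusted p = 0.225).

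Among the genes of uptake, Slc27a1 (FATP1), an acyl-CoA synthetase of the cell membrane that carries fatty acids inward, read 84.4, 96.0 and 75.8 CPM in the +dox ventricle, 170, 123 and 172 CPM in –dox and 209, 173 and 138 CPM in +/–dox. No library of either group reached down to +dox. Its log2 fold change was 0.86 ± 0.19 (adjusted p = 0.00171) in –dox and 1.02 ± 0.19 (adjusted p = 3.39e-04) in +/–dox, called in each of 15 alternatives.

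Angptl4, a secreted inhibitor of lipoprotein lipase that fatty acids induce, read 2.42, 3.81 and 0.522 CPM in +dox, 18.6, 9.31 and 8.18 CPM in –dox and 11.5, 19.8 and 6.63 CPM in +/–dox. The groups did not overlap, and the log2 fold changes were 2.40 ± 0.72 (adjusted p = 0.0189) and 2.47 ± 0.72 (adjusted p = 0.0155). The –dox call was lost without +dox replicate 1 (adjusted p = 0.0615), +dox replicate 3 (0.0834) or –dox replicate 1 (0.0957). The +/–dox call was lost without +dox replicate 1 (0.0517), +dox replicate 3 (0.0741) or +/–dox replicate 2 (0.0813).

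Lpl, the target of that inhibitor, read 2641, 2797 and 3339 CPM in +dox, 4343, 3935 and 3981 CPM in –dox and 3600, 3579 and 3238 CPM in +/–dox. It was higher by adjusted p but under the fold limit, with log2 fold changes of 0.48 ± 0.08 (adjusted p = 3.14e-05) in –dox and 0.25 ± 0.08 (adjusted p = 0.0202) in +/–dox, and the +/–dox libraries overlapped +dox. Cd36 read 1357, 1401 and 1392 CPM in +dox, 2158, 1994 and 1710 CPM in –dox and 1844, 1693 and 1463 CPM in +/–dox. It passed by adjusted p in –dox (log2 0.50 ± 0.11, adjusted p = 0.00185) and not in +/–dox (0.27 ± 0.11, adjusted p = 0.0888), with no overlap with +dox in either. Fabp3 read 3251, 3571 and 2414 CPM in +dox, 3614, 3648 and 2934 CPM in –dox and 3587, 3392 and 2794 CPM in +/–dox. These groups overlapped, and its log2 fold changes were 0.14 ± 0.17 (adjusted p = 0.603) and 0.08 ± 0.17 (adjusted p = 0.789).

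**Figure D2:**
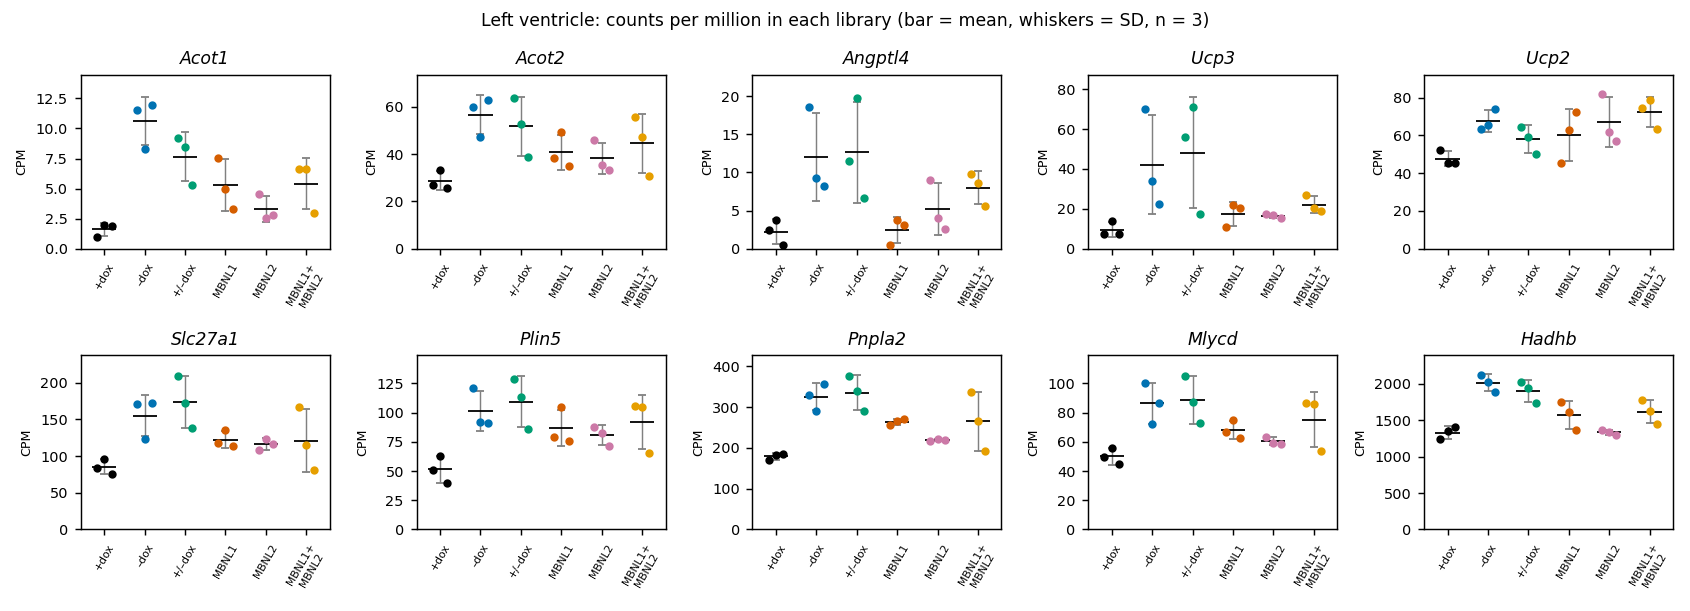
CPM (TMM-normalized) in each left ventricle library for the 10 members called in any cohort, by cohort on the x axis. Points are libraries, bars are means and whiskers are SDs (n = 3). Acot1 lies between 0.956 and 1.97 CPM in +dox and between 5.32 and 11.9 CPM in –dox and +/–dox, and its MBNL libraries lie between 2.58 and 7.56 CPM.

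Both lipid droplet genes that govern lipolysis were called. Pnpla2 (ATGL), the lipase that opens triglyceride breakdown, read 170, 184 and 185 CPM in the +dox ventricle, 329, 290 and 357 CPM in –dox and 375, 339 and 290 CPM in +/–dox. The log2 fold change was 0.86 ± 0.12 (adjusted p = 4.39e-06) in –dox and 0.90 ± 0.12 (adjusted p = 2.47e-06) in +/–dox, with no overlap and a call in each of 15 alternatives. Plin5, the perilipin that couples droplets to mitochondria, read 51.1, 63.2 and 39.9 CPM in +dox, 121, 91.8 and 91.0 CPM in –dox and 129, 113 and 85.8 CPM in +/–dox. Here too +dox was lowest without overlap, with log2 fold changes of 0.98 ± 0.28 (adjusted p = 0.0124) and 1.09 ± 0.28 (adjusted p = 0.00579). Its –dox call was lost without +dox replicate 3 (adjusted p = 0.0683) or –dox replicate 1 (adjusted p = 0.0690). Plin2, the general perilipin, gave 0.09 ± 0.10 (adjusted p = 0.549) and 0.01 ± 0.10 (adjusted p = 0.975).

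Entry into the mitochondrion is braked by malonyl-CoA, which Acacb makes and Mlycd removes. Mlycd read 49.5, 56.1 and 44.6 CPM in +dox, 100.1, 72.1 and 86.8 CPM in –dox and 105, 87.3 and 72.7 CPM in +/–dox. Its libraries did not overlap those of +dox, the log2 fold change was 0.79 ± 0.15 (adjusted p = 4.25e-04) in –dox and 0.82 ± 0.15 (adjusted p = 2.84e-04) in +/–dox, and both calls stood in each of 15 alternatives. Acacb was higher by adjusted p alone, at 0.27 ± 0.09 in each (adjusted p = 0.0329 and 0.0323). Of the carnitine shuttle, the muscle carnitine palmitoyltransferase Cpt1b (0.41 ± 0.12, adjusted p = 0.0141) and Cpt2 of the inner membrane (0.44 ± 0.12, adjusted p = 0.00959) passed by adjusted p in –dox. The liver form Cpt1a (0.37 ± 0.17, adjusted p = 0.113) and the translocase Slc25a20 (0.45 ± 0.17, adjusted p = 0.0504) did not. In +/–dox Cpt1a, Cpt1b and Cpt2 passed by adjusted p, at 0.50, 0.36 and 0.46. For Cpt1b, 75.6% of its 100-base words also occur in the overlapping transcript Gm44502.

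In the beta oxidation cycle differences were smaller and mostly in one direction. Hadhb, the thiolase subunit of the trifunctional protein, read 1234, 1345 and 1407 CPM in the +dox ventricle, 2115, 2026 and 1883 CPM in –dox and 2024, 1937 and 1739 CPM in +/–dox. The groups were apart, at 0.60 ± 0.10 (adjusted p = 7.13e-05) in –dox and 0.52 ± 0.10 (adjusted p = 4.43e-04) in +/–dox. That put it just inside the fold limit in –dox, where it fell outside without +dox replicate 1 (0.54) or –dox replicate 1 (0.56), and just outside in +/–dox. Its partner Hadha passed by adjusted p with 0.40 ± 0.12 in each (adjusted p = 0.0211 and 0.0198). Hadhb shares 14.8% of its 100-base words with other annotated genes, Gm13910 and Gm9108 first among them.

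Of the acyl-CoA dehydrogenases, which start each cycle, Acadvl for very long chains (0.54 ± 0.12, adjusted p = 0.00202) and Acadl (0.33 ± 0.10, adjusted p = 0.0205) passed by adjusted p in –dox. Acadm for medium chains (0.06 ± 0.13) and Acads for short chains (0.16 ± 0.13) did not. Acadl read 978, 1061 and 1023 CPM in +dox and 1342, 1315 and 1189 CPM in –dox, without overlap, and 1286, 1262 and 1135 CPM in +/–dox, where its adjusted p was 0.0607. Echs1, the short-chain enoyl-CoA hydratase, read 288, 311 and 351 CPM in +dox. Its libraries lay close together in –dox, at 402, 399 and 401 CPM, and in +/–dox, at 399.9, 405 and 399 CPM. Its log2 fold change was 0.34 ± 0.06 in each comparison (adjusted p = 7.28e-05 and 7.34e-05), under the fold limit. The thiolase Acaa1a was higher by adjusted p in both, at 0.29 and 0.42, and Acaa2 in +/–dox alone, at 0.42 (0.35, adjusted p = 0.0556 in –dox). Hadh, the short-chain hydroxyacyl-CoA dehydrogenase, gave -0.08 ± 0.11 and 0.00 ± 0.11.

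Unsaturated fatty acids need auxiliary enzymes, and of these Ech1 passed by adjusted p in both comparisons (0.56 ± 0.16 in each, adjusted p = 0.0114 and 0.0116) and Eci1 in +/–dox (0.28 ± 0.10, adjusted p = 0.0350). Eci2 and Decr1 passed in neither, with log2 fold changes between 0.16 and 0.37. Of the electron transfer chain from the cycle, Etfb passed in both (0.39 ± 0.08, adjusted p = 7.24e-04, and 0.51 ± 0.08, adjusted p = 3.13e-05), while Etfa and the dehydrogenase Etfdh passed in neither, at 0.20 to 0.31. Etfb shares 35.8% of its 100-base words with the overlapping Gm45233. Among the acyl-CoA synthetases, Acsl1, the main form of the heart, gave 0.30 ± 0.13 (adjusted p = 0.108) in –dox. Acsl4 was lower by adjusted p, at 21.1, 21.0 and 26.5 CPM in +dox and 17.4, 19.8 and 17.0 CPM in –dox (log2 -0.34 ± 0.10, adjusted p = 0.0142), and Acsl3 and Acsl5 were within 0.11 of 0.

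The transcripts of the regulators themselves differed little. Ppara, which encodes PPARα, read 47.6, 48.0 and 50.8 CPM in the +dox ventricle and 53.9, 55.1 and 50.9 CPM in –dox (0.13 ± 0.09, adjusted p = 0.334). Ppargc1a, which encodes PGC-1α, read 111, 116 and 121 CPM in +dox and 131, 133 and 137 CPM in –dox (0.20 ± 0.08, adjusted p = 0.0803). Neither passed the test, although the groups did not overlap. In +/–dox their log2 fold changes were 0.09 ± 0.09 and 0.02 ± 0.08.

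For the +/–dox ventricle as a whole, 8 of the 41 members were called and all 8 were higher than in +dox, against 3.09% of all genes. They were the 9 of –dox less Hadhb. By adjusted p alone 22 were higher, against 10.6% of all genes, and Acsl4 was lower. The median log2 fold change of the members was 0.29 against 9.92e-04 over all genes. The –dox and +/–dox comparisons share their +dox libraries, so their likeness is partly built in. Set directly against each other, +/–dox and –dox ventricles had 0 of the 41 members called, against 0.0312% of all genes. At an unadjusted p under 0.05 were 2 members (Lpl at -0.23 ± 0.08 and Ppargc1a at -0.18 ± 0.08) and 1586 of all 19231 genes. DESeq2 also called 0 members. The largest interval was that of Angptl4, so this says that no difference was detectable with 3 libraries each, not that there was none.

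Going by the library names, replicates 1 and 2 of these cohorts belong to one set (set A) and replicate 3, the libraries with Xist, to another (set B). Within set A alone, 11 members were called in the –dox ventricle and 10 in the +/–dox ventricle, and Angptl4 was lost in both (adjusted p = 0.0940 and 0.0727). For the other members called in –dox over both sets the log2 fold changes within set A were between 0.69 and 2.76. Gained within set A were Lpl (0.61), Cd36 (0.59) and Ech1 (0.59) in –dox, and Hadhb (0.63), Ech1 (0.66) and Cpt1a (0.66) in +/–dox. The share of all genes called within set A is not given, so these counts have no background. Set B held 1 library per group, so it gives no test of its own. In the +/–dox ventricle its library was the lowest of the 3 for all 8 members called. A fit with the set as a term called 9 and 8 members, as without it.

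Genes of neighbouring pathways were taken from a list of 76 related lipid genes, 75 of them tested. In the –dox ventricle 11 passed as higher and 1 as lower, and in +/–dox 10 passed as higher and 0 as lower. Their median log2 fold changes were 0.25 and 0.25. Pdk4, the kinase that shuts off glucose oxidation and a PPARα target, differed most of those with more than a trace of reads: it read 101, 122 and 54.1 CPM in the +dox ventricle, 1194, 621 and 555 CPM in –dox and 727, 941 and 244 CPM in +/–dox. Its groups did not overlap, and its log2 fold change was 3.10 ± 0.52 (adjusted p = 1.22e-04) in –dox. Among the others higher in –dox were Acot7 (1.58), Acad11 (1.34), Mgll (0.88), Etfbkmt (0.84), Pparg (0.81), Plin4 (0.79), Pex11a (0.72) and Gpihbp1 (0.60), the endothelial anchor of Lpl. Abcd2, a peroxisomal transporter, was lower (-0.88). Angptl8 was called as well, but no –dox library was above 0.303 CPM, so no fold change is given. Esrra was higher by adjusted p alone (0.31 ± 0.10), and Ppard was not (-0.11 ± 0.08). Of 18 genes of the citric acid cycle 0 were called in either comparison, with 9 and 11 higher by adjusted p alone.

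Markers of other cells moved with some of these groups. The 6 endothelial markers summed to 180 to 202 TPM in the +dox ventricle and 222 to 275 TPM in –dox, and 5 of the 6 were higher by adjusted p alone. The cardiomyocyte markers summed to 23152 to 24585 TPM in +dox, 24220 to 25992 TPM in –dox and 27924 to 29121 TPM in +/–dox, with Ryr2 called in –dox and Ryr2 and Tnnt2 in +/–dox. The 7 white fat markers summed to 2.31 to 14.5 TPM in the +dox ventricle, 0.960 to 35.0 TPM in –dox and 0.450 to 11.9 TPM in +/–dox, with 0 called. Among the –dox ventricles the library with the highest Ucp3, replicate 1, had the lowest Adipoq, at 0.100 TPM against 1.09 and 3.23 TPM. The +dox ventricles went the other way, and the library with the highest Ucp3 had the highest Adipoq, at 1.44 TPM. In +/–dox the library with the highest Ucp3 lay between the others in Adipoq. Of the 5 brown fat markers Cidea was called higher in –dox, while Ucp1 was listed at 0 in all +dox, –dox and +/–dox ventricles. The 5 macrophage markers summed to 60.3 to 68.6 TPM in –dox and 61.5 to 93.6 TPM in +dox, and the 5 fibroblast markers to 560 to 699 TPM and 657 to 705 TPM, with 0 called in either list. Of 14 clock genes, listed because the hour of collection moves many lipid genes, 0 were called higher and 1, Npas2, lower in the –dox ventricle. Npas2 was called lower in the +/–dox and MBNL1 ventricles too. By adjusted p alone 2 clock genes were higher and 2 lower in the +/–dox ventricle. The clock genes summed to 236 to 286 TPM in the +dox ventricle, 207 to 245 TPM in –dox and 280 to 337 TPM in +/–dox. The part of these cells and of the hour in the members' differences was not tested.

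In the atria the same question gave fewer calls. Of the 41 members 5 were called in –dox, all higher than in +dox, against 2.83% of all genes: Ucp2, Ucp3, Pnpla2, Slc27a1 and Acot1. By adjusted p alone 9 were higher, against 7.30% of all genes, and 0 lower. In +/–dox 5 were called, all higher, against 2.01% of all genes: Ucp2, Ucp3, Pnpla2, Slc27a1 and Angptl4. There 8 were higher by adjusted p alone, against 5.40% of all genes. The median log2 fold changes of the members were 0.22 in –dox and 0.15 in +/–dox, against 0.027 and 0.025 over all genes.

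**Figure D3:**
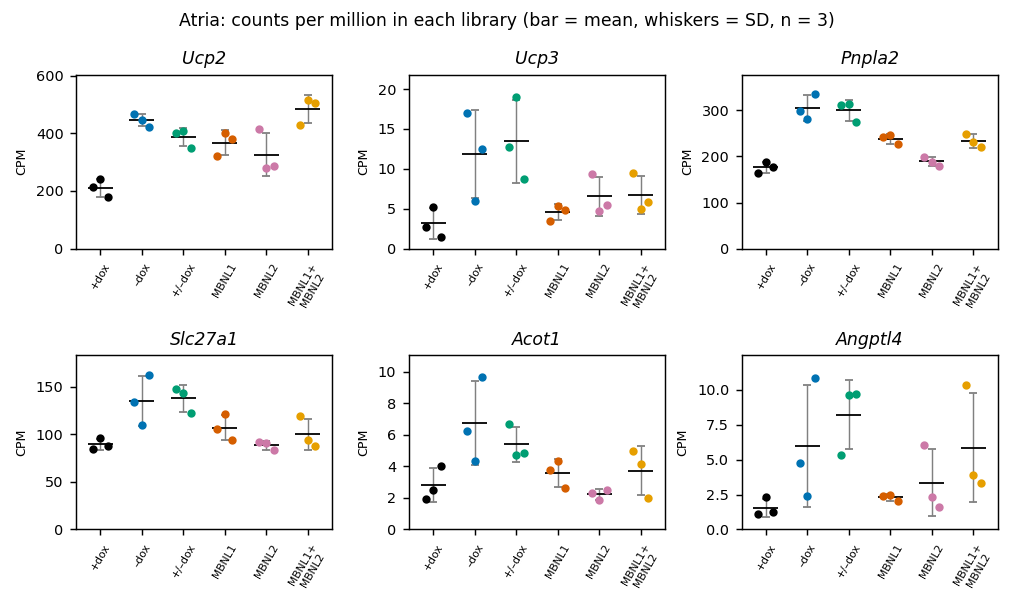
CPM (TMM-normalized) in each atrial library for the 6 members called in –dox or +/–dox atria, by cohort on the x axis. Points are libraries, bars are means and whiskers are SDs (n = 3). Ucp2 lies at 179 to 240 CPM in +dox and at 280 CPM or more in every library of the other cohorts.

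Ucp2 carried the clearest atrial difference. It read 213, 240 and 179 CPM in +dox atria, 465, 447 and 423 CPM in –dox and 403, 407 and 350 CPM in +/–dox. The +dox libraries were the lowest by a wide margin, with log2 fold changes of 1.08 ± 0.16 (adjusted p = 2.14e-05) and 0.88 ± 0.16 (adjusted p = 3.66e-04), called in each of 15 alternatives. Pnpla2 read 164, 189 and 177 CPM in +dox, 299, 281 and 335 CPM in –dox and 311, 314 and 274 CPM in +/–dox. These did not overlap either, with 0.79 ± 0.12 (adjusted p = 2.02e-05) and 0.76 ± 0.12 (adjusted p = 4.22e-05), and its calls also stood in each of 15 alternatives. For Ucp2 the values within set A were called as well in both comparisons.

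Each of the other atrial calls was lost when 1 of several single libraries was left out. Ucp3 read 2.72, 5.28 and 1.49 CPM in +dox, 17.0, 6.03 and 12.5 CPM in –dox and 12.7, 18.9 and 8.68 CPM in +/–dox, with no overlap, at 1.89 ± 0.53 (adjusted p = 0.0154) and 2.07 ± 0.53 (adjusted p = 0.0106). In –dox its call was lost without +dox replicate 1 (adjusted p = 0.0753), +dox replicate 3 (0.0751) or –dox replicate 1 (0.0805), and in +/–dox without +dox replicate 1 (0.0630), +dox replicate 3 (0.0543) or +/–dox replicate 2 (0.0602). Within set A its adjusted p was 0.149 and 0.0732.

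Slc27a1 read 84.8, 96.2 and 88.1 CPM in +dox atria, 134, 109.7 and 162 CPM in –dox and 148, 143 and 122 CPM in +/–dox, just over the fold limit at 0.59 ± 0.19 (adjusted p = 0.0310) and 0.62 ± 0.19 (adjusted p = 0.0302). All –dox and +/–dox libraries were above +dox, yet 10 of 15 alternatives ended the first call and 7 of 15 the second. Without single libraries the adjusted p in –dox was 0.121 (+dox replicate 1), 0.0576 (+dox replicate 2), 0.0785 (+dox replicate 3), 0.0671 (–dox replicate 1) and 0.187 (–dox replicate 3). In +/–dox it was 0.128, 0.0599 and 0.0761 without +dox replicates 1, 2 and 3, and 0.108 and 0.0990 without +/–dox replicates 1 and 2.

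Acot1 read 1.95, 2.51 and 4.02 CPM in +dox atria, 6.21, 4.36 and 9.63 CPM in –dox and 6.67, 4.68 and 4.84 CPM in +/–dox. It was above +dox in every library, called in –dox (1.26 ± 0.38, adjusted p = 0.0236) and not in +/–dox (0.94 ± 0.38, adjusted p = 0.115). The –dox call was lost without +dox replicate 1 (adjusted p = 0.138), +dox replicate 2 (0.0923) or –dox replicate 3 (0.166). Angptl4 read 1.09, 2.31 and 1.22 CPM in +dox, 4.74, 2.42 and 10.8 CPM in –dox and 5.36, 9.61 and 9.71 CPM in +/–dox. Its groups did not overlap, and it was called in +/–dox (2.41 ± 0.73, adjusted p = 0.0301) and not in –dox (1.96 ± 0.73, adjusted p = 0.0686). That +/–dox call was lost without any of the +dox replicates (0.143, 0.0507 and 0.0911) and without +/–dox replicate 2 (0.0772) or 3 (0.0862).

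Members under the fold limit in the atria included Lpl (0.44 ± 0.08, adjusted p = 1.63e-04, in –dox), Hadhb (0.58 ± 0.10, adjusted p = 1.54e-04), Echs1 (0.36 ± 0.06, adjusted p = 4.21e-05) and Acadvl (0.40 ± 0.12, adjusted p = 0.0236). Echs1 again showed little spread in –dox, with 222, 221 and 221 CPM against 177, 173 and 166 CPM in +dox. Plin5 (0.81 ± 0.28, adjusted p = 0.0508) and Acot2 (0.58 ± 0.22, adjusted p = 0.0703) did not pass in –dox. The remaining members not called, the carnitine shuttle among them, had log2 fold changes between -0.16 and 0.31 in –dox.

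White fat markers varied widely between atrial libraries. Their sum was 2.03 to 51.1 TPM in +dox, 9.07 to 126 TPM in –dox and 7.09 to 79.2 TPM in +/–dox, and 0 of 7 were called. Adipoq read 0.120, 0.570 and 4.06 TPM in +dox atria and 0.910, 6.56 and 11.1 TPM in –dox. Pnpla2, Plin5 and Angptl4 are expressed in fat as well, and the part of fat in their atrial values was not tested. Endothelial markers summed to 240 to 277 TPM in +dox and 308 to 367 TPM in –dox, and 5 of 6 were higher by adjusted p alone, while the macrophage sum was 164 to 209 TPM and 158 to 181 TPM. In +/–dox atria 0 of 6 endothelial markers passed. Fibroblast markers summed to 1060 to 1335 TPM in +dox and 1402 to 1571 TPM in –dox, with 2 of 5 higher by adjusted p alone. For cardiomyocyte markers the sums were 34855 to 36254 TPM and 38467 to 39629 TPM, with 3 of 7 higher by adjusted p alone and Ryr2 called. The part of these cells in the atrial differences was not tested. In –dox and +/–dox atria 6 and 6 of the related lipid genes were called, all higher, and Pdk4 (2.19 ± 0.50, adjusted p = 0.00344) led the –dox ones. Of the citric acid cycle 0 were called in the atria, and of the clock genes 1, Bhlhe41, was higher in +/–dox.

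Whether the chambers differed in these effects was tested as an interaction of chamber and cohort. Of the 41 members 0 passed for –dox against +dox, with 1.03% of all genes passing. There 5 members and 2120 of all 19231 genes were at an unadjusted p under 0.05. For +/–dox against +dox 0 passed, with 0.692% of all genes passing. Here 10 members and 2438 of all 19231 genes were at an unadjusted p under 0.05. DESeq2 also called 0 in both. These tests treated the libraries of both chambers as independent. Deviations from the group mean of same-numbered libraries of a cohort, set side by side across the chambers, correlated at 0.029 to 0.22 over genes (median 0.12), against -0.17 to 0.096 (median -0.065) for libraries of other numbers, and 33 of 36 libraries correlated best with their own number. This is a hint from the data, and not from the labels, that the numbers follow the mice. It has limits. In every cohort but MBNL1+MBNL2 the libraries with Xist, which are also those of set B, carry the same number in both chambers. Shared sex or library set could thus match them without shared mice. Deviations within a group also sum to 0, so the negative values for other numbers largely follow from the positive ones.

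A fit with each cohort and replicate number as a block was therefore added after the data were seen. With it 6 members passed for –dox, against 3.08% of all genes, and 4 for +/–dox, against 3.10% of all genes, so whether the chambers were shown to differ depends on the pairing. Acot1 gave the largest interaction. Its log2 fold change was greater in the ventricle than in the atria by 1.52 ± 0.27 (edgeR with the block, adjusted p = 0.00287) in –dox and by 1.29 ± 0.27 (adjusted p = 0.0127) in +/–dox, where the fit without the block gave adjusted p of 0.248 and 0.287. Ucp2 went the other way, with a smaller log2 fold change in the ventricle, at -0.58 ± 0.13 (adjusted p = 0.0229) and -0.61 ± 0.14 (adjusted p = 0.0214). In –dox Acot2 (0.41), Slc25a20 (0.38) and Cd36 (0.29) also passed with greater log2 fold changes in the ventricle and Acsl4 (-0.41) with a lower one, at adjusted p between 0.0221 and 0.0495. In +/–dox Mlycd (0.50) and Eci1 (0.38) passed with greater ones, at adjusted p of 0.0359 and 0.0336. The block left the directions of these members as they were.

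In the –dox and +/–dox atria, 0 of the 41 members were called against each other, with 0.0104% of all genes called. Lpl (-0.20 ± 0.08) was the 1 member at an unadjusted p under 0.05, against 907 of all 19231 genes.

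More members were called between chambers than between cohorts of a chamber, though single genes went the other way. Acot1, Angptl4, Ucp3, Pnpla2 and Slc27a1 were among those with a smaller log2 difference between chambers than between –dox and +dox ventricles. In –dox hearts 29 of the 41 members were called between ventricle and atria. Of these 27 were higher in the ventricle, against 11.2% of all genes, and 2 were higher in the atria, against 13.7% of all genes. With the cohort and number as a block 28 were higher in the ventricle, Acot1 added, against 11.2% of all genes, and 2 in the atria, against 13.8%. Plin5 led the ventricle side with 101 CPM ± 17.0 (SD) against 22.0 CPM ± 4.91 in the atria, a log2 difference of 2.20 ± 0.29 (SE, adjusted p = 4.93e-07). Ucp3 (1.83 ± 0.51), Fabp3 (1.68 ± 0.17), Ech1 (1.65 ± 0.16) and Lpl (1.57 ± 0.08, adjusted p = 1.99e-16) followed it. Ucp2 was the reverse, with 67.7 CPM ± 5.70 in the ventricle and 445 CPM ± 21.3 in the atria (log2 -2.72 ± 0.17, adjusted p = 1.42e-13), and so was Acsl4 (-0.62 ± 0.10). The neighbouring genes Ucp3 and Ucp2 thus had opposite chamber patterns.

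The chamber difference depends on the scale. On log2(TPM + 1) the median of all tested genes was -0.32, against -0.028 on counts, and 18 members were called higher in the ventricle and 4 in the atria, where Acsl5 and Cpt1a joined Ucp2 and Acsl4. What share of all genes was called in each direction on TPM is not given, so these counts have no background. The share of calls that were higher in the ventricle was 93.1% on counts and 81.8% on TPM. The median member was at 0.43 on TPM and at 1.01 on counts. Direction flipped for 8 members that were higher in the ventricle on counts and lower on TPM: Acaa1a, Acaa2, Acsl3, Eci2, Pnpla2, Ppara, Ppargc1a and Slc27a1, none of them called on either scale. Fibroblast, macrophage and atrial cell markers were higher in the atria (4 of 5, 4 of 5 and 6 of 6 called), and the cellular makeup of the chambers cannot be told apart from their levels per cell. Of the 75 related lipid genes tested 31 were called higher and 4 lower in the ventricle, and of 18 citric acid cycle genes 14 were called higher and 0 lower.

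**Figure D4:**
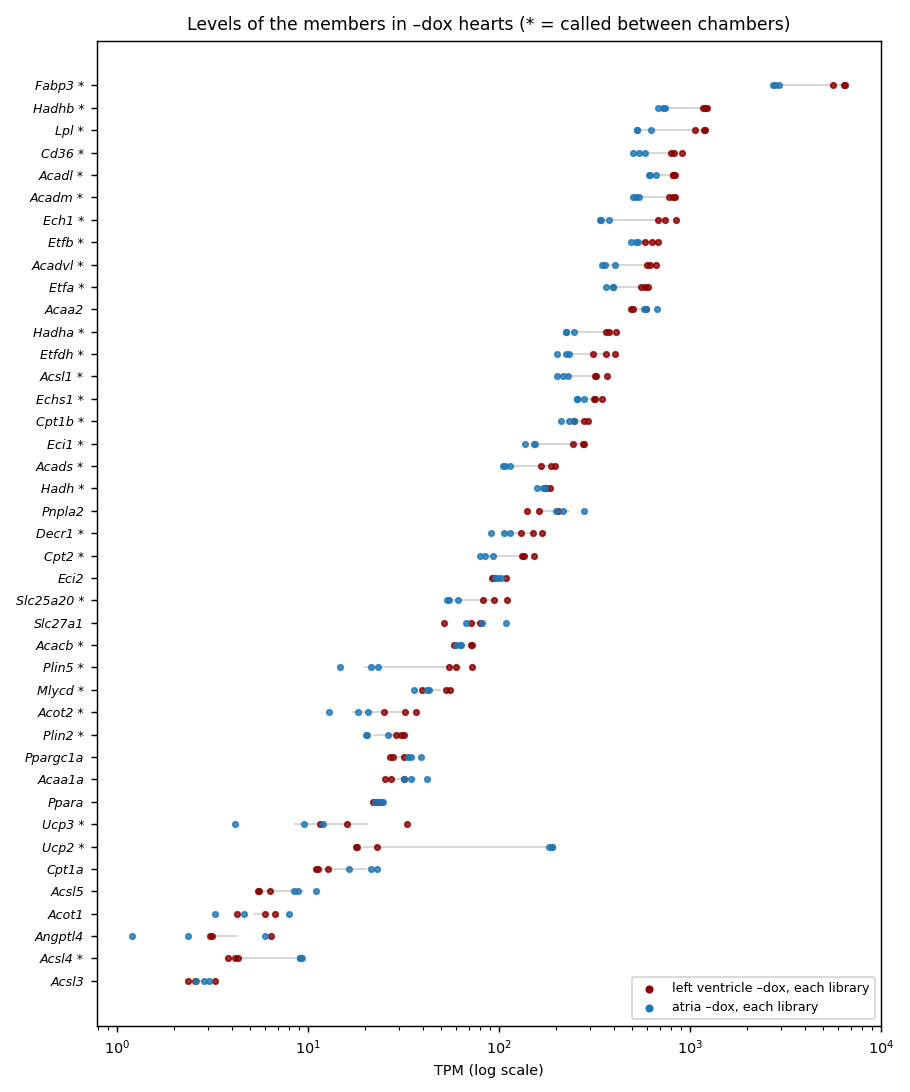
TPM on a log scale in each –dox library for all 41 members, ordered by their mean in the left ventricle (dark red) with the atria in blue. Asterisks mark genes called between chambers on counts. Fabp3 is far above the rest in both chambers, and Ucp2 is the member with the widest gap in favour of the atria.

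The second question was how the members differed between +dox mice given AAV9-delivered MBNL and those given none, while the repeat RNA was still made. In the ventricle 1 of the 41 was called in MBNL1 mice, against 2.66% of all genes, 0 in MBNL2 mice, against 1.52%, and 3 in MBNL1+MBNL2 mice, against 2.65%. All 4 calls were higher than in +dox. Medians of the members' log2 fold changes were 0.15, 0.055 and 0.21, against -0.038, -7.44e-04 and -0.010 over all genes. For MBNL2, where edgeR called 0, DESeq2 called 1, Acot1. At an unadjusted p under 0.05 were 10 of the 41 members and 4294 of all 19231 genes, a similar share. On TPM the medians for MBNL1, MBNL2 and MBNL1+MBNL2 were 0.18, 0.18 and 0.27, against 0, 0.061 and 0.019 over all genes. In –dox and +/–dox ventricles the members' TPM medians were 0.31 and 0.28. In MBNL2 11 members changed sign between the scales. The members' share of all TPM was 1.53% to 1.70% in MBNL1 ventricles, 1.47% to 1.74% in MBNL2 and 1.57% to 1.85% in MBNL1+MBNL2. It was 1.61% to 1.83% in +/–dox ventricles. The MBNL1 and MBNL2 shares overlapped those of +dox, and the MBNL1+MBNL2 shares did not.

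Acot1 was the member called in both MBNL1 and MBNL1+MBNL2 ventricles. It read 7.56, 4.96 and 3.29 CPM in MBNL1 ventricles, 4.53, 2.58 and 2.82 CPM in MBNL2 and 6.61, 6.66 and 2.99 CPM in MBNL1+MBNL2, all above the highest +dox library at 1.97 CPM. It was called in MBNL1 (1.71 ± 0.40, adjusted p = 0.00800) and in MBNL1+MBNL2 (1.75 ± 0.40, adjusted p = 0.00574), and not in MBNL2 (1.05 ± 0.40, adjusted p = 0.105). The MBNL1 call was lost without MBNL1 replicate 1, the library with few detected genes (1.36, adjusted p = 0.0534), or +dox replicate 1 (1.44, adjusted p = 0.0513), leaving 0 members called. Within set A it was called at 2.10 (adjusted p = 0.00304). With only 6 libraries fitted, both calls were lost (adjusted p = 0.0891 and 0.0689).

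Mlycd and Ucp2 were the other calls in MBNL1+MBNL2 ventricles. Mlycd read 86.3, 85.8 and 53.7 CPM there, the last within the +dox range (0.59 ± 0.15, adjusted p = 0.0146). Ucp2 read 74.6, 78.9 and 63.4 CPM, all above +dox (0.60 ± 0.16, adjusted p = 0.0175). Leaving out +dox replicate 3 or either of MBNL1+MBNL2 replicates 1 and 2 ended both calls and left 1 member, with adjusted p between 0.0693 and 0.127. Without +dox replicate 1 Mlycd was lost (0.0563), and without +dox replicate 2 Ucp2 (0.0641). Without MBNL1+MBNL2 replicate 3 there were 7 calls, with Acot2, Plin5, Pnpla2 and Slc27a1 added. All MBNL1+MBNL2 libraries belonged to set B, which held 1 +dox ventricle, so no value within a set could be had. Without the libraries with Xist, a comparison added after the data were seen, Acot1 alone was called (1.88, adjusted p = 0.0136), while Mlycd (0.51, adjusted p = 0.0891) and Ucp2 (0.57, adjusted p = 0.0526) were not. A fit with the set as a term called 7 members, the same 3 with Acot2, Angptl4, Plin5 and Slc25a20.

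The remaining genes called in –dox lay between +dox and –dox. Pnpla2 read 255, 266 and 271 CPM in MBNL1 ventricles, 217, 221 and 221 CPM in MBNL2 and 338, 265 and 191 CPM in MBNL1+MBNL2. No library overlapped +dox, and it passed by adjusted p in MBNL1 (0.56 ± 0.12, adjusted p = 0.00367) and MBNL1+MBNL2 (0.56 ± 0.12, adjusted p = 0.00267), just under the fold limit, but not in MBNL2 (0.29 ± 0.12, adjusted p = 0.128). Plin5 gave 0.75 ± 0.27, 0.65 ± 0.27 and 0.84 ± 0.28 (adjusted p = 0.0852, 0.155 and 0.0587). Slc27a1 gave 0.52, 0.44 and 0.50 with SE 0.19 (adjusted p = 0.0853, 0.155 and 0.101).

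Ucp3 and Angptl4, far higher in –dox and +/–dox, showed smaller differences. Ucp3 read 10.7, 21.7 and 20.3 CPM in MBNL1, 17.2, 17.0 and 15.3 CPM in MBNL2 and 26.9, 20.4 and 18.8 CPM in MBNL1+MBNL2 (0.88 ± 0.50, 0.79 ± 0.50 and 1.20 ± 0.51, adjusted p = 0.291, 0.387 and 0.155). Angptl4 read 0.509, 3.76 and 3.11 CPM in MBNL1, 9.00, 4.02 and 2.57 CPM in MBNL2 and 9.74, 8.66 and 5.59 CPM in MBNL1+MBNL2 (0.10 ± 0.72, 1.19 ± 0.71 and 1.81 ± 0.71, adjusted p = 0.947, 0.342 and 0.126). In MBNL1 ventricles Angptl4 was the closest to +dox of the 10 genes. Hadhb was at 0.25 ± 0.10, 0.00 ± 0.10 and 0.28 ± 0.10, and Acot2 at 0.51, 0.41 and 0.63, none past the test. Lower by adjusted p alone were Acsl4 in all 3 cohorts (-0.47, -0.33 and -0.48) and Ppargc1a in MBNL2, with 88.1, 92.0 and 103 CPM against 111, 116 and 121 CPM in +dox (-0.30 ± 0.08, adjusted p = 0.0256).

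**Figure D5:**
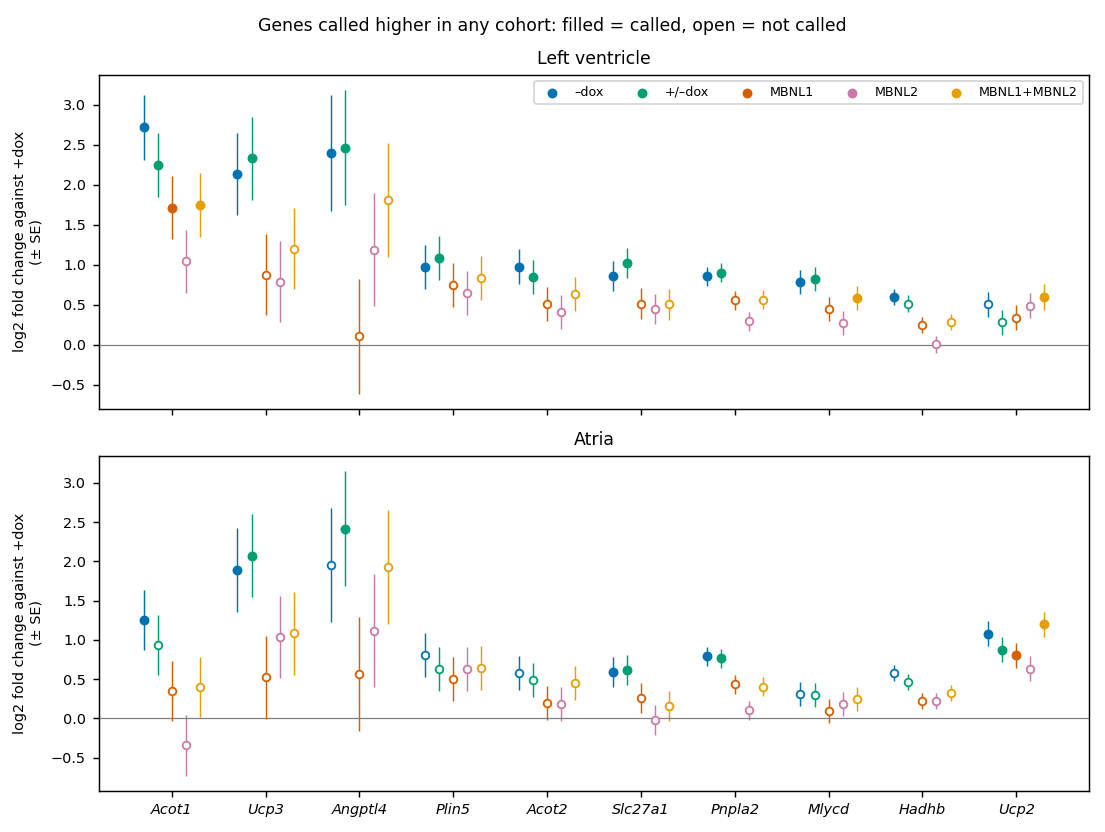
Log2 fold change against +dox (± SE) of the 10 members called in any cohort, for 5 cohorts in the left ventricle (top) and the atria (bottom). Filled points were called. In the ventricle most genes step down from –dox and +/–dox to the MBNL cohorts, while Ucp2 in the atria is at 0.63 to 1.20 in all of them.

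MBNL1+MBNL2 ventricles were also set against +/–dox ventricles, the cohort in which repeat expression had been stopped. Of the 41 members 0 were called, against 0.530% of all genes. By adjusted p alone 2 were lower: Echs1, with 319, 316 and 285 CPM against 399.9, 405 and 399 CPM (-0.39 ± 0.06, adjusted p = 1.89e-04), and Etfb (-0.33 ± 0.08, adjusted p = 0.0281). The groups of Echs1 did not overlap, and its MBNL1+MBNL2 values lay within the +dox range or below it. In all 8 of the 41 members were at an unadjusted p under 0.05, against 2821 of all 19231 genes. All 8 were lower, among them Slc27a1 (-0.52), Pnpla2 (-0.34) and Ucp3 (-1.13), and DESeq2 called 0. Without MBNL1+MBNL2 replicate 1, 1 member, Slc27a1, was called.

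In the atria of the MBNL cohorts the 1 member called was Ucp2, and it was not called in every one. It passed in MBNL1, the 1 of 41 against 0.130% of all genes, and in MBNL1+MBNL2, the 1 of 41 against 0.260% of all genes, while 0 of 41 were called in MBNL2, against 0.00520% of all genes. It read 321, 403 and 381 CPM in MBNL1 atria, 414, 280 and 286 CPM in MBNL2 and 428, 515 and 506 CPM in MBNL1+MBNL2, and every one of these was above the highest +dox value of 240 CPM. The log2 fold changes were 0.80 ± 0.16 (adjusted p = 0.0143), 0.63 ± 0.16 (adjusted p = 0.447) and 1.20 ± 0.16 (adjusted p = 7.78e-05). The MBNL1+MBNL2 call stood in each of 15 alternatives. That of MBNL1 was lost without +dox replicate 1 (0.0849) or 3 (0.101) and without MBNL1 replicate 2 (0.0840) or 3 (0.108), and within set A (0.232). DESeq2 called Ucp2 in MBNL2 atria too, where 5 members and 831 of all 19231 genes were at an unadjusted p under 0.05.

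The other genes called in –dox or +/–dox atria did not pass in MBNL cohorts. Pnpla2 read 242, 245 and 226 CPM in MBNL1, 199, 188 and 180 CPM in MBNL2 and 249, 232 and 220 CPM in MBNL1+MBNL2, with 0.43, 0.10 and 0.40 (adjusted p = 0.127, 1.00 and 0.132). Its MBNL1 and MBNL1+MBNL2 libraries were above all +dox ones, those of MBNL2 were not. Slc27a1 gave 0.26, -0.02 and 0.16 and Acot1 0.35, -0.34 and 0.40. Ucp3 gave 0.52, 1.04 and 1.08, with 9.49, 4.99 and 5.81 CPM in MBNL1+MBNL2, and replicate 1 of that cohort, its highest library, was also the one with Ucp1, the brown fat gene, at 15.9 TPM against at most 0.630 TPM in any other atrial library. What that tissue added to Ucp3, Plin5 and Angptl4 in this library was not tested. Against +/–dox atria, MBNL1+MBNL2 atria had 0 of 41 members called, against 1.71% of all genes. There 8 members and 3845 of all 19231 genes, a similar share, were at an unadjusted p under 0.05. By adjusted p alone 1 member, Echs1, was lower (180, 170 and 179 CPM against 215, 224 and 216 CPM, -0.31 ± 0.06, adjusted p = 9.72e-04).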

How the data were processed

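RNA was measured by stranded mRNA sequencing (paired-end) of 36 libraries, 6 cohorts by 2 chambers by 3 mice. The authors aligned reads to mm10 with STAR 2.7.10b and GENCODE M25 and made the deposited expected counts and TPM per gene symbol with RSEM 1.3.1. The deposited TPM are scaled for transcript length and sum to the same total in each library. RSEM's strand setting and the treatment of loci that share a symbol are not given in the sources used here.

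Expected counts were rounded and fitted over all 36 libraries with edgeR 4.0.16 (R 4.3.3, TMM, filterByExpr, robust quasi-likelihood test), a group for each cohort and chamber. A gene was called at an adjusted p under 0.05 and a fold of at least 1.5, interactions by adjusted p alone, and p-values were adjusted over 19231 genes. SEs are the log2 fold change over the root of F. The fit was tested on simulated data. DESeq2 1.42.0, limma 3.58.1 on log2(TPM + 1) and other settings were alternatives. No replicates agreed within sampling noise: they differed by at least 10.3 chi-square units per degree of freedom. Positions and shared 100-base words came from GENCODE M21 annotation and transcripts (mm10), promoters from RefSeq.

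Members and lists were chosen with earlier results of these data known. Values by library are given for members called in a comparison with +dox and for the 5 with the highest TPM in –dox ventricles. Echs1, Acsl4, Ppara and Ppargc1a were added to these after their values were seen. Within a chamber, same-numbered libraries of different cohorts came from different mice and were not paired. Their correlations ran from -0.154 to 0.290, with medians of 0.057 in the atria and 0.024 in the ventricle. For other numbers the medians were -0.025 and -0.013. Replicate 3 carried Xist and belonged to set B in every cohort but MBNL1+MBNL2, so the numbers are not free of sex and set. Across chambers the labels do not tie numbers to mice. A fit with the cohort and number as a block, and comparisons without the libraries whose Xist was at 1 TPM or more, were added after the data were seen. Some genes of the related lists are not reported here by name.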

Additional observations from a re-analysis of the deposited data

Results flagged for a closer look

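The difference between the chambers in the log2 fold change against +dox passed for 8 members with the cohort and replicate number as a block in edgeR, and for 0 without it. The ventricle's log2 fold change was greater by 1.52 (Acot1), 0.41 (Acot2), 0.38 (Slc25a20) and 0.29 (Cd36) in –dox, and by 1.29 (Acot1), 0.50 (Mlycd) and 0.38 (Eci1) in +/–dox. It differed by -0.58 (Ucp2) and -0.41 (Acsl4) in –dox and by -0.61 (Ucp2) in +/–dox. That the numbers follow the mice is not stated in the labels.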

How the results depend on the processing

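No single member that was called reversed in any of 495 alternatives, 415 of which kept the call and 80 of which did not, and 230 of 280 alternative counts stayed within 1.5 times the count reported. Counts below are of members, ventricle first. Adjusted p without a fold limit gave 23 in –dox, 23 in +/–dox, 4 in MBNL1, 2 in MBNL2, 7 in MBNL1+MBNL2 and 2 in MBNL1+MBNL2 against +/–dox, and in the atria 9 in –dox, 8 in +/–dox and 1 in MBNL1+MBNL2 against +/–dox. The replicate number as a block gave 2 in MBNL1 ventricles (Plin5 added), and counts for the other comparisons stayed within 1.5 times. Within a chamber the numbers do not pair mice, though replicate 3 of most cohorts shares Xist and library set. The replicate block across chambers, chosen after seeing the data, gave 6 interactions of chamber with –dox and 4 with +/–dox against 0 and 0 without it, and 30 members between the chambers. Without the libraries with Xist, also chosen after seeing the data, MBNL1+MBNL2 ventricles had 1. The library set as a term gave 2 in MBNL1 and 7 in MBNL1+MBNL2 ventricles. Fitting only 6 libraries gave 0 in MBNL1 and 1 in MBNL1+MBNL2 ventricles and 2 in –dox atria. Limma on TPM gave 3, 2 and 5 in MBNL1, MBNL2 and MBNL1+MBNL2 ventricles. DESeq2 gave 2, 1 and 5 there and 1 in MBNL2 atria. Without the filter on low counts –dox and +/–dox atria had 3 each. Set A alone gave 3 in –dox atria, 0 in MBNL1 atria, and 1 (Slc25a20) and 2 (Ech1 and Eci1) interactions with –dox and +/–dox. The causes were not tested.

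Leaving out each library in turn gave 6 to 11 members in –dox, 7 to 11 in +/–dox, 0 to 1 in MBNL1, 1 to 7 in MBNL1+MBNL2 and 0 to 1 in MBNL1+MBNL2 against +/–dox ventricles. In the atria it gave 3 to 8 in –dox, 2 to 4 in +/–dox and 0 to 1 in MBNL1. Set A alone could not be run for MBNL1+MBNL2, all of whose libraries are in set B. With 3 libraries a group and an SE of 0.72 for Angptl4 and 0.52 for Ucp3, differences between –dox and +/–dox of the size of 1.5-fold could not be seen for these genes, and Angptl4 had as few as 34 expected counts in a library.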
